A study of Sorghum bicolor with 12 samples.

Results

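A set of 89 sorghum genes read much lower in the stem internode of the group Ds3 than at booting, while in Ds1 they stayed within 2-fold of booting. They were chosen from the water-limiting part of the deposited expression table, out of 33391 loci that name a gene. A member had at least 10 FPKM in booting (fragments corrected for transcript length and for library size). Its booting to Ds3 ratio, with 1 FPKM added to each value, was at least 4. Its Ds1 to booting ratio lay between 0.5 and 2. The gene Sobic.004G220300 was left out. At booting, 8706 loci naming a gene reached 10 FPKM, and the members were 1.02% of them. All statements about booting, Ds1 and Ds3 in these genes describe how they were chosen and are not findings.

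The RNA came from the middle stem internode of CSH22SS, a hybrid sweet sorghum (Sorghum bicolor) raised in the open field; all groups share cultivar and tissue. The groups were booting, the milky stage of the grain, physiological maturity, and 3 more booting groups with the codes Ds1, Ds2 and Ds3, which the table heads as water-limiting. The code Ds, the way in which water was limited and the meaning of its numbers (times or severities) are not explained in the labels. Each group had 2 libraries, which the authors combined into 1 value, so no value below has an error, no difference was tested, and every comparison is one of size.

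Sweet sorghum is a C4 grass that stores sucrose in the soft pith cells of its stem internodes. At booting the panicle is still enclosed in the sheath of the flag leaf, and internodes are building wall and filling with sugar. Limited water generally slows growth in grasses, and genes differ in how much water loss precedes a change in their transcripts. The table gives gene IDs only. Of the 89 members, 0 had a match by ID among the RefSeq genes of assembly NCBIv3, and of all 33391 loci naming a gene 0 did. The members are therefore given by ID, without names or functions. The lists by product name and the check of the tissue against marker genes could not be made for the same reason. A lower value in a whole internode can come from fewer cells of a type or from less RNA per cell, which cannot be told apart here.

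The members ranged from moderate to abundant. In booting they read from 10.2 to 669.9 FPKM, with a median of 22.8; 41 were under 20 FPKM, 38 lay from 20 to under 100, and 10 were at 100 or more. Their summed level was 4674 FPKM in booting, 4202 in Ds1, 1179 in Ds2, and Ds3 had 695, or 0.98%, 0.475%, 0.173% and 0.107% of all FPKM. The total over all loci was 477138 FPKM in booting, but 885374, 682190 and 647608 in the Ds groups, so their shares are taken of larger totals. Read depth is unknown. Members at 10 FPKM or more numbered 89 in booting, 77 in Ds1, 21 in Ds2; Ds3 had 8, and members under 1 FPKM numbered 0, 0, 16 and 17 in the same order. Of the 89, 35 were above and 54 below booting in Ds1 (29 above under quantile normalization), and 53 lay within 1.5-fold of it. The median log2 change from booting to Ds1 was -0.26 in the members and -0.27 over the 8706 loci. Over the loci within 2-fold of booting in Ds1, as the members are, it was -0.12. The Ds1 window was part of the choice, so these medians are a description.

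The most abundant members covered a wide range of levels in Ds3. Sobic.004G256600 read 669.9 FPKM in booting, 419 in Ds1, 178 in Ds2, and 161 FPKM in Ds3, the highest of the set in booting, Ds2 and Ds3. Sobic.008G132700 read 490.1 FPKM in booting, 482 in Ds1, 143 in Ds2, and 106 FPKM in Ds3, and its booting and Ds1 values were almost equal. Sobic.001G364500 read 233 FPKM in booting, 147 in Ds1, 58.7 in Ds2, and 52.3 FPKM in Ds3. These 3 genes read above 50 FPKM in Ds3, with booting to Ds3 ratios of 4.15, 4.6 and 4.38, close to the threshold of 4. Sobic.004G141000 read 204 FPKM in booting, 171 in Ds1, 88.3 in Ds2, and 45.5 FPKM in Ds3. Sobic.001G052000 read 169 FPKM in booting, 179.9 in Ds1, 63.7 in Ds2, and 37.2 FPKM in Ds3. Sobic.002G086800 read 186 FPKM in booting, 151 in Ds1, 38.8 in Ds2, and 20.8 FPKM in Ds3, the lowest of these 3 in Ds3 although second of them in booting. Sobic.003G334000 read 111 FPKM in booting, 56.9 in Ds1, 11.7 in Ds2, and 9.57 FPKM in Ds3, a gene near the lower edge of the Ds1 window. Sobic.007G218800 read 94.3 FPKM in booting, 66.3 in Ds1, 40.5 in Ds2, and 9.62 FPKM in Ds3. In Ds2 Sobic.007G218800 was 2.3-fold lower than in booting on FPKM + 1, and Sobic.003G334000 was 8.81-fold lower.

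On FPKM + 1 a booting to Ds3 ratio cannot exceed the booting value plus 1, so the largest ratios need a high booting level. Sobic.001G377300 read 84 FPKM in booting, 57 in Ds1, 2.58 in Ds2, and 0.324 FPKM in Ds3, a 64.2-fold lower value in Ds3 on FPKM + 1 and the largest ratio of the set. Sobic.001G516000 read 55.5 FPKM in booting, 42.2 in Ds1, 0.333 in Ds2, and 0.653 FPKM in Ds3, a ratio of 34.2. Sobic.006G026700 read 86.7 FPKM in booting, 61.5 in Ds1, 7.32 in Ds2, and 1.59 FPKM in Ds3, a ratio of 33.8. All 3 were above 40 FPKM in Ds1 and at or under 1.59 FPKM in Ds3. Sobic.005G096101 read 124 FPKM in booting, 205 in Ds1, 33.3 in Ds2, and 5.35 FPKM in Ds3, where the Ds1 value was the higher one and the booting to Ds3 ratio was 19.6. Sobic.003G328800 read 149.7 FPKM in booting, 122 in Ds1, 36.4 in Ds2, and 8.77 FPKM in Ds3, a ratio of 15.4. Sobic.001G469600 read 279 FPKM in booting, 346 in Ds1, 86.8 in Ds2, and 17.9 FPKM in Ds3, a ratio of 14.8. These 3 abundant genes kept several FPKM in Ds3 and had clearly intermediate values in Ds2.

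The other members with large ratios had Ds3 values from 0 to several FPKM. Sobic.006G141400 read 17.1 FPKM in booting, 12.2 in Ds1, 0.833 in Ds2, and 0.227 FPKM in Ds3. Sobic.003G385500 read 45.6 FPKM in booting, 46.7 in Ds1, 2.32 in Ds2, and 2.2 FPKM in Ds3. Sobic.008G105500 read 16.1 FPKM in booting, 29.7 in Ds1, 0.543 in Ds2, and 0.20 FPKM in Ds3. The Ds1 values of these 3 were below, close to and above booting, while in Ds3 all were under 2.3 FPKM. Sobic.001G391800 read 12.1 FPKM in booting and 17.7 in Ds1 and was listed at 0 in both Ds2 and Ds3, so no fold is given for it. Sobic.002G376700 read 72.9 FPKM in booting, 98.6 in Ds1, 29.3 in Ds2, and 4.75 FPKM in Ds3, a gene with an intermediate Ds2 value.

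The set has no sharp border. Just inside the Ds3 threshold, Sobic.006G230700, Sobic.008G072600 and Sobic.010G120800 had booting to Ds3 ratios of 4.06, 4.05 and 4.09. Just outside it, Sobic.010G050700, Sobic.007G184200 and Sobic.006G102500 had ratios of 3.99, 3.99 and 3.98. In the Ds1 window, the members ran from a Ds1 to booting ratio of 0.51 at Sobic.002G167800 to 1.94 at Sobic.002G257100, and the nearest loci outside were Sobic.008G060300 at 0.50 and Sobic.008G118000 at 2.03. Of all 642 loci at least 4-fold lower in Ds3, which are 7.37% of the 8706, 536 were at least 2-fold lower in Ds1 too and 16 were at least 2-fold higher there.

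Ds2 was the one water-limiting group that the choice of members did not use, although it is set against the same booting libraries. All 89 members were below booting and below Ds1 in Ds2, also after median-of-ratios scaling or quantile normalization for the comparison with booting. Of the 89, 47 were at least 4-fold lower in Ds2 than in booting (8.24% of the 8706 loci were), 36 were 2-fold to under 4-fold lower, and 6 were under 2-fold lower. At 2-fold the members numbered 83, against 25.7% of the loci. Among the 5909 loci within 2-fold of booting in Ds1, the share 4-fold lower in Ds2 was 1.13%. The median log2 change from booting to Ds2 was -2.04 in the members and -0.35 over the 8706 loci; to Ds3 it was -2.59 and -0.29. Because booting is shared, these Ds2 values are a description and no support for the choice.

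**Figure D1:**
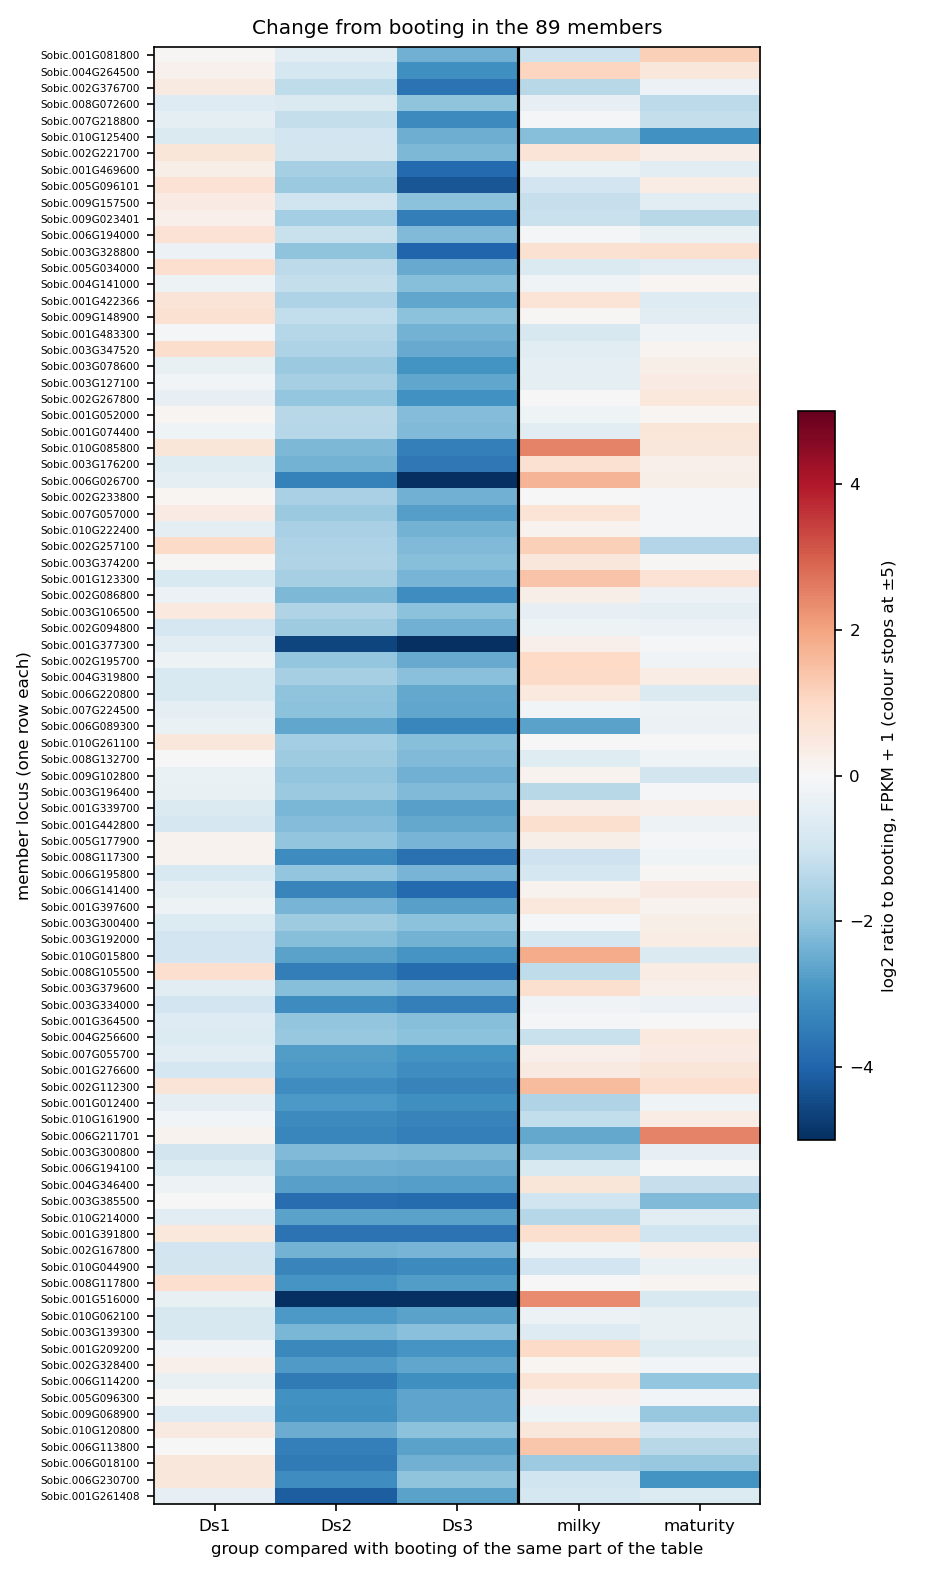
Log2 ratio to booting on FPKM + 1 (colour) for the 89 members (rows) in Ds1, Ds2 and Ds3 of the water-limiting part and in milky and maturity of the developmental part, 1 pooled value per group, ordered from members with the smallest share of their Ds3 drop in Ds2 (top) to the largest. Ds2 and Ds3 are below booting in all 89 rows, and the later stages show both directions.

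The members differed in how much of their drop in Ds3 was also seen in Ds2. In 72 of the 89, Ds3 was below Ds2 (as in 43.9% of the 8706 loci), in 16 it was above, and in 1 both were listed at 0. On the log2 scale, the drop from booting to Ds2 was a median of 81.3% of the drop to Ds3, with a range from 21.7% to 155%. It was under 50% in 11 members, from 50% to under 100% in 61, and 100% or more in 17. At least a 2-fold lower value in Ds3 than in Ds2 was found in 21 members, against 1.49% of the 8706 loci, and a 2-fold higher one in 3, against 1.61%. A low Ds3 value was part of the choice, so these counts are a description. In the 337 loci at least 4-fold lower in both Ds1 and Ds3, chosen on Ds3 in the same way, 3.56% were 2-fold lower in Ds3 than in Ds2, and the median log2 change from Ds2 to Ds3 was 0.00, against -0.45 in the members. Those 337 loci were already lower in Ds2, with a median log2 change from booting of -3.26, against -2.04 in the members. On FPKM + 1 this leaves them less room for a further drop, so the 2 sets are not alike in this step. With 1 value per group the difference between them could not be tested.

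The 11 members with under 50% of their drop in Ds2 kept from 6.69 to 86.8 FPKM there. Sobic.001G081800 read 15.6 FPKM in booting, 16.1 in Ds1, 10.6 in Ds2, and 2.14 FPKM in Ds3, the member nearest to booting in Ds2. Sobic.004G264500 read 18.5 FPKM in booting, 21.7 in Ds1, 9.69 in Ds2, and 1.33 FPKM in Ds3. Sobic.002G221700 read 23.9 FPKM in booting, 37.3 in Ds1, 12 in Ds2, and 4.28 FPKM in Ds3. In these 3 genes Ds1 was the highest of the 4 groups of the water-limiting part, in Sobic.001G081800 by a small margin. Sobic.009G157500 read 34.4 FPKM in booting, 46.1 in Ds1, 16.9 in Ds2, and 7.63 FPKM in Ds3. Sobic.008G072600 read 20.9 FPKM in booting, 13.1 in Ds1, 12.2 in Ds2, and 4.41 FPKM in Ds3, with Ds1 and Ds2 almost equal. Sobic.010G125400 read 15 FPKM in booting, 8.68 in Ds1, 7.17 in Ds2, and 1.9 FPKM in Ds3. The last 2 were lower in Ds1 than in booting and were among the 6 members under 2-fold lower in Ds2. Beside the genes above, Sobic.002G376700, Sobic.001G469600, Sobic.005G096101, Sobic.007G218800 and Sobic.009G023401 belong to the 11. Of the 11, 8 had a Ds1 value above booting, or 7 under quantile normalization. Of all 89 members 35 did, or 29 under quantile normalization, and the share over all loci was not counted. A Ds1 value above booting was not confined to the 11. It was also found in 8 of the 17 members whose drop in Ds2 was at least as large as in Ds3. Under quantile normalization it was found in 7 of those 17. In 4 members, Sobic.001G469600, Sobic.005G096101, Sobic.002G376700 and Sobic.004G264500, Ds3 was at least 4-fold below Ds2 on FPKM + 1.

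At the other end, 17 members had a drop in Ds2 at least as large as in Ds3, 9 of them under 1 FPKM in Ds2. The extreme of the set was Sobic.001G516000, given above, at 0.333 FPKM in Ds2, a 42.4-fold lower value than booting on FPKM + 1. Sobic.001G377300 followed with a ratio of 23.8 in Ds2 on FPKM + 1, but it read lower still in Ds3 and is not among the 17. Sobic.001G261408 read 35.6 FPKM in booting, 26.7 in Ds1, 1.1 in Ds2, and 4.8 FPKM in Ds3. Sobic.006G018100 read 14.6 FPKM in booting, 22.3 in Ds1, 0.343 in Ds2, and 1.98 FPKM in Ds3. Sobic.006G230700 read 11.9 FPKM in booting, 17.9 in Ds1, 0.484 in Ds2, and 2.18 FPKM in Ds3. In these 3 the lowest value was in Ds2, and Ds3 was at least 2-fold above it on FPKM + 1, also after both scalings for the direction. All 3 values in Ds2 were near 1 FPKM or below, where read depth limits precision and is unknown.

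**Figure D2:**
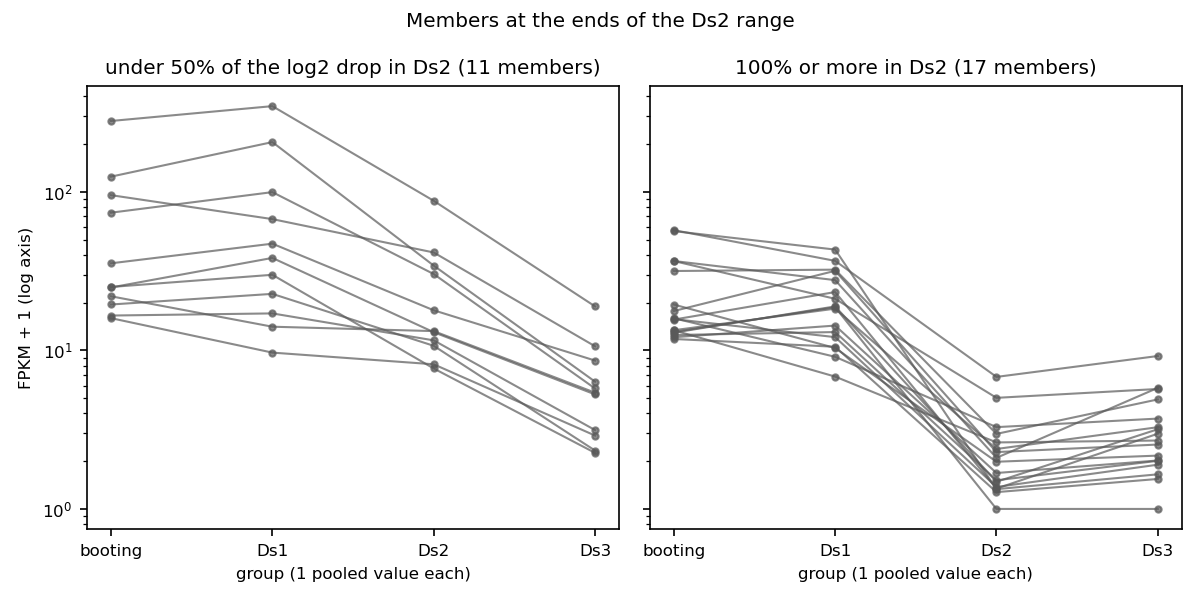
FPKM + 1 on a log axis in booting, Ds1, Ds2 and Ds3 for the 11 members with under 50% of their log2 drop in Ds2 (left) and the 17 with 100% or more (right), each line 1 gene and each point 1 pooled value. On the left Ds2 lies from 6.69 to 86.8 FPKM between Ds1 and Ds3; on the right it lies from 0 to 5.8 FPKM and is the lowest point, tied with Ds3 in 1 gene.

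The developmental part shows the same genes at the milky stage and at maturity. It shares the booting libraries but gives other values for them, so its values are compared only with its own booting column. All 89 members had a locus there, 5 of them a locus that names more than 1 gene, whose reads cannot be separated. Booting read a median of 1.16 times higher in the developmental part over 7747 genes, and 73 members lay within 0.1 log2 of that common ratio. The other 16 did not, 18% against 16.7% of the joined genes, and in 6 the gap was at least 0.5 log2; why the readings differ was not tested. For example, Sobic.002G267800 read 71.9 FPKM in booting of the water-limiting part and 177 in the developmental part, and Sobic.006G141400 17.1 and 36.1.

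At the later stages members lay both above and below booting. Their summed level was 5627 FPKM in booting, 5667 in milky and, in maturity, 5752. Sobic.004G256600 alone read 776 FPKM in booting, 362 in milky, and 1103 FPKM in maturity, and without it the sums were 4852, 5305 and 4649 FPKM, so that maturity was then below booting. The median log2 change from booting was -0.10 in milky and -0.15 in maturity, against -0.01 and 0.05 over 9573 loci at 10 FPKM or more in booting. Of the 88 members at that level, 3 were at least 4-fold lower in milky (1.26% of the loci were) and 2 at least 4-fold higher (0.146%). In maturity, 3 were at least 4-fold lower (0.951%) and 1 higher (0.0209%). At 2-fold, 17 were lower (5.95%) and 8 higher (2.33%) in milky, and 11 were lower (3.08%) and 2 higher (0.397%) in maturity. In all, 57 of the 88 stayed within 2-fold of booting at both stages, 64.8% against 89.6% of the loci. These comparisons share the booting libraries with the choice of members.

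**Figure D3:**
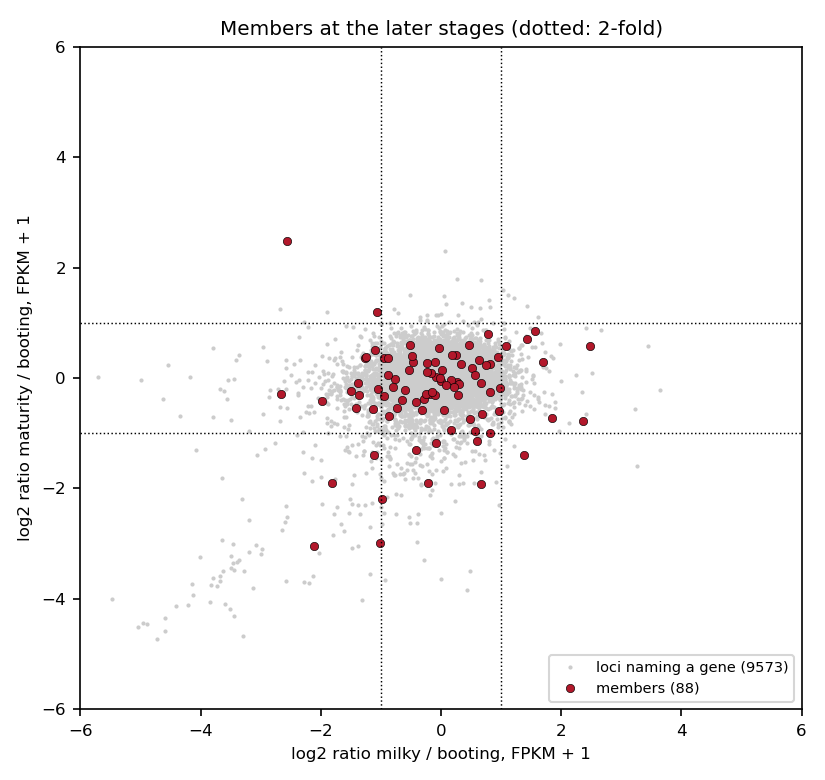
Log2 ratio of milky to booting (horizontal) and of maturity to booting (vertical) on FPKM + 1 for 88 members (red) and all 9573 loci naming a gene with at least 10 FPKM in booting (grey), 1 pooled value per group; dotted lines mark 2-fold, and 1 grey locus lies beyond the axes. Of the members, 57 lie in the central square.

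The 2 members with the largest milky to booting ratios were Sobic.010G085800 and Sobic.001G516000. Sobic.010G085800 read 21.3 FPKM in booting, 124 in milky, and 32.2 FPKM in maturity, a 5.59-fold higher value in milky on FPKM + 1. In the water-limiting part the same gene read 18.4, 28.4, 3.13 and 0.829 FPKM in booting, Ds1, Ds2 and Ds3. Sobic.001G516000 read 64.3 FPKM in booting, 333 in milky, and 37.2 FPKM in maturity, 5.12-fold higher in milky on FPKM + 1. It was under 1 FPKM in Ds2 and Ds3. Both genes had their highest value of the developmental part in milky. Their low Ds3 values were part of the choice, and 17 of the 89 members were under 1 FPKM in Ds3. Sobic.010G015800 read 29.5 FPKM in booting, 109 in milky, and 17.5 FPKM in maturity. Sobic.006G026700 read 152 FPKM in booting, 498 in milky, and 185 FPKM in maturity, at a locus that also names a neighbouring gene. In Sobic.010G015800 and Sobic.006G026700 the 2 booting readings differed by more than the common ratio between parts.

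Other members were lowest in milky. Sobic.006G089300 read 43.3 FPKM in booting, 5.99 in milky, and 35.4 FPKM in maturity. Sobic.006G211701 read 12.3 FPKM in booting, 1.25 in milky, and 73.5 FPKM in maturity. On FPKM + 1 it was 5.61-fold higher in maturity than in booting and the only member 4-fold higher there. Sobic.003G300800 read 29.9 FPKM in booting, 6.78 in milky, and 22 FPKM in maturity. In all 3 the milky value was the low one, and at maturity 2 were within 2-fold of booting and Sobic.006G211701 was far above it. In the water-limiting part Sobic.006G211701 read 10.6 FPKM in booting, 12.2 in Ds1, 0.204 in Ds2, and 0.0774 FPKM in Ds3.

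A few members were also low at maturity. Sobic.010G125400 read 17.3 FPKM in booting, 3.22 in milky, and 1.22 FPKM in maturity, lower at both stages. Sobic.006G230700 read 13.8 FPKM in booting, 6.34 in milky, and 0.861 FPKM in maturity. Sobic.003G385500 read 52.8 FPKM in booting, 26.1 in milky, and 10.8 FPKM in maturity. These 3 are the members at least 4-fold lower in maturity on FPKM + 1. Sobic.006G114200 read 17.6 FPKM in booting, 28.5 in milky, and 3.89 FPKM in maturity, just under 4-fold lower in maturity on FPKM + 1. Among those higher in maturity, Sobic.001G081800 read 18 FPKM in booting, 8.14 in milky, and 42.9 FPKM in maturity, Sobic.002G112300 read 12.2 FPKM in booting, 38.3 in milky, and 22.9 FPKM in maturity, and Sobic.003G328800 read 173 FPKM in booting, 298 in milky, and 303 FPKM in maturity. In Sobic.001G081800 the milky value was the lowest of the 3, whereas in the other pair both later stages were above booting.

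Maturity against milky is the comparison that shares no library with the choice of members. Of 86 members at 10 FPKM or more in either stage, 19 were at least 2-fold lower in maturity (7.02% of 10184 loci were) and 13 at least 2-fold higher (6.15%). At 4-fold, 5 were lower (1.4%) and 3 higher (0.746%). The median log2 change was -0.08, against 0.03 over the loci. The share 2-fold apart in either direction was larger in the members within each band of expression. With the higher stage from 10 to under 30 FPKM, 12 of 37 members were 2-fold apart, 32.4% against 11.9% of the loci. From 30 to under 100 FPKM, 12 of 31 were, 38.7% against 13.4%, and at 100 FPKM or more 8 of 18, 44.4% against 18%. The 2 stages each had 1 value, so whether the members vary more than other loci was not tested. The largest gaps on FPKM + 1 were at Sobic.006G211701, 33.1-fold higher in maturity, and Sobic.001G516000, 8.76-fold higher in milky.

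By their IDs the members lay on all 10 sorghum chromosomes. Chromosome 1 held 18, chromosome 3 held 15, chromosome 6 held 12, chromosome 2 held 11 and chromosome 10 held 10, and the others 4 or 5 each. As a share of the loci at 10 FPKM or more in booting, this ran from 0.467% on chromosome 4 to 1.58% on chromosome 6. Some members stood close to each other in ID order, and how often other loci at 10 FPKM or more do so was not counted. With up to 5 genes between them, 5 pairs were found, and 1 of them had no gene between. That pair was Sobic.006G194000 and Sobic.006G194100. Sobic.006G194000 read 36 FPKM in booting, 60.2 in Ds1, 16.1 in Ds2, and 7.03 FPKM in Ds3. Sobic.006G194100 read 37.7 FPKM in booting, 23 in Ds1, 6.16 in Ds2, and 5.9 FPKM in Ds3. The first was higher in Ds1 than in booting and the second lower, so the 2 neighbours differed in Ds1 and were close to each other in Ds3.

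The pair Sobic.008G117300 and Sobic.008G117800 lay in a run of 6 consecutive listed IDs that shared 1 pattern. The other 4 are not members, and the run was singled out after its values were seen. Sobic.008G117300 read 14.9 FPKM in booting, 16.9 in Ds1, 0.78 in Ds2, and 0.208 FPKM in Ds3. Sobic.008G117800 read 16.7 FPKM in booting, 30.8 in Ds1, 1.28 in Ds2, and 1.55 FPKM in Ds3. Sobic.008G117400 read 7.42 FPKM in booting, 8.02 in Ds1, 0.264 in Ds2, and 0.048 FPKM in Ds3, under the 10 FPKM minimum. Sobic.008G118000 read 16 FPKM in booting, 33.5 in Ds1, 1.06 in Ds2, and 0.574 FPKM in Ds3, outside the Ds1 window by a small margin. The remaining 2, Sobic.008G117600 and Sobic.008G117900, read 0.0545 and 0.154 FPKM in booting, too little to show a drop from it. In Ds1 they read 1.24 and 4.06, and both were listed at 0 in Ds2 and Ds3. Among the 4 groups of the water-limiting part, all 6 read highest in Ds1, also after both scalings. All 6 were under 2 FPKM in Ds2 and Ds3. Of the IDs next to the run, Sobic.008G117200 did not share this pattern and Sobic.008G118050 was listed at 0 in all 4 groups. Sobic.008G117200 read 56.7 FPKM in booting, 28.2 in Ds1, 20.2 in Ds2, and 22.7 FPKM in Ds3. Sobic.008G118100 read 8.02 FPKM in booting, 2.79 in Ds1, 1.93 in Ds2, and 1.98 FPKM in Ds3. Sobic.008G118200 read 22.6 FPKM in booting, 30.2 in Ds1, 28.4 in Ds2, and 29 FPKM in Ds3, highest in Ds1 too but not low in Ds2 or Ds3. Whether reads of near-identical copies were split between neighbours in this run is not known, and their values may not be independent.

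**Figure D4:**
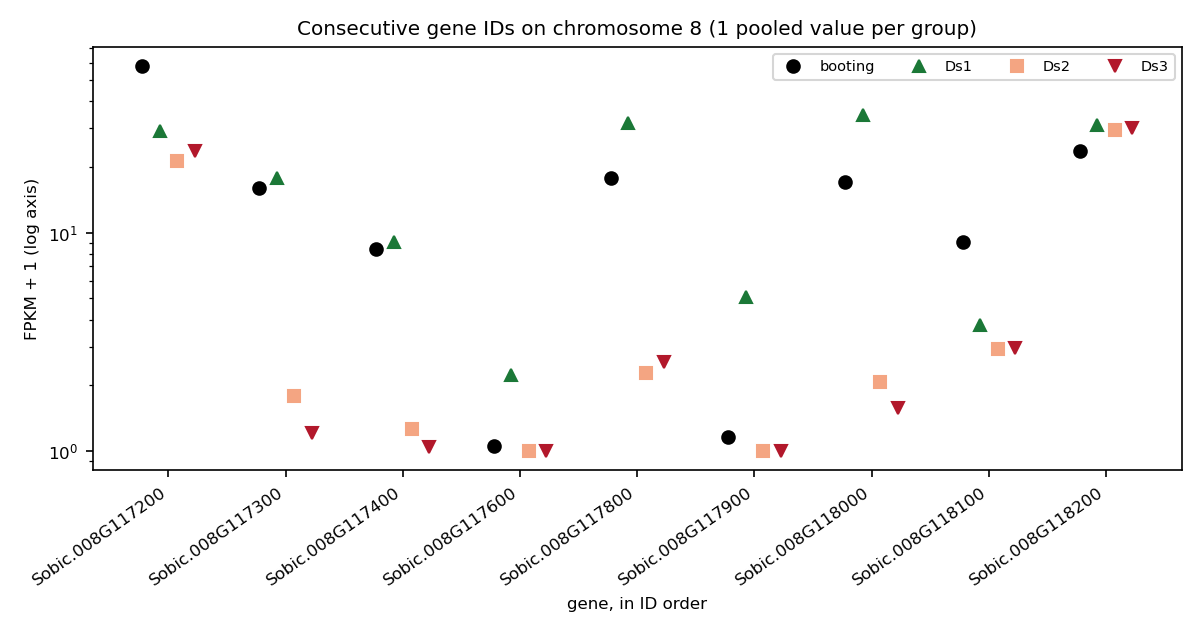
FPKM + 1 on a log axis (vertical) in booting, Ds1, Ds2 and Ds3 for 9 genes of chromosome 8 in ID order (horizontal), 1 pooled value per group. The 6 genes from Sobic.008G117300 to Sobic.008G118000 have their highest point in Ds1 and both Ds2 and Ds3 under 2 FPKM, and Sobic.008G117200 is highest in booting.

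Neighbours did not always share the pattern. Between Sobic.006G113800 and Sobic.006G114200, Sobic.006G113900 read 48 FPKM in booting and 0.879 in Ds1, so it was low in all 3 Ds groups. Sobic.006G113800 read 30.7 FPKM in booting, 31.3 in Ds1, 1.97 in Ds2, and 3.91 FPKM in Ds3. Sobic.006G114200 read 14.8 FPKM in booting, 11.1 in Ds1, 0.376 in Ds2, and 0.902 FPKM in Ds3. Both members held their booting level in Ds1, and both were higher in milky than in maturity: Sobic.006G113800 read 94.4 and 12.9 FPKM, and Sobic.006G114200 28.5 and 3.89. Between Sobic.005G096101 and Sobic.005G096300, Sobic.005G096201 read 4.04 FPKM in booting and 3.9 in Ds3. Sobic.005G096300 read 11.5 FPKM in booting, 12.1 in Ds1, 0.516 in Ds2, and 1.01 FPKM in Ds3. Between Sobic.003G300400 and Sobic.003G300800, Sobic.003G300600 read 5.11 FPKM in booting, 57.9 in Ds1 and 3.32 in Ds3. Both members there were lower in Ds1 than in booting: Sobic.003G300400 read 27.4 FPKM in booting, 16.5 in Ds1, 7.36 in Ds2, and 5.83 FPKM in Ds3, and Sobic.003G300800 read 25.7 FPKM in booting, 13.2 in Ds1, 4.83 in Ds2, and 4.59 FPKM in Ds3.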

How the data were processed

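Stranded total-RNA libraries were made from middle internodes, 2 per group in 6 groups. The authors deposited FPKM values, 1 per group, in a table with a developmental part (booting, milky, maturity) and a water-limiting part (booting, Ds1, Ds2, Ds3), per the file headers. Booting reads differently in the 2 parts, so they were not compared across. The submitters' processing notes name cutadapt 1.8.1, Bowtie2 2.2.9, HISAT2 2.0.5 and Cuffdiff, with no role or order; neither the genome build nor read depth is stated there. Members and lists were chosen with earlier results of these data known. Ratios used FPKM + 1, within a part, in Python 3.11.15 with pandas 2.3.3; the rule was tested on simulated data. A limma test over 12 libraries was planned in case each library had a value, and was not used. Genes named are those with the highest booting level, the extreme ratios in Ds3, Ds2, milky and maturity, or a place next to the thresholds or to another member, the last chosen after the values were seen. Background shares were taken over loci naming a gene at 10 FPKM or more. Developmental loci were joined by gene ID.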

Additional observations from a re-analysis of the deposited data

How the results depend on the processing

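Of 74 recomputed values, 61 stayed within 1.5-fold for counts or 0.2 log2 for medians, and none turned in sign. The 0.2 log2 limit is wider than the medians for milky (-0.10), maturity (-0.15) and maturity against milky (-0.08), so it says little about them. The milky median was -0.04 after median-of-ratios scaling and -0.22 with a pseudocount of 5 FPKM. With a pseudocount of 5 FPKM, which lowers the ratios of low genes by construction, 36 genes met the rule, 15 of them 4-fold lower in Ds2, 1 in milky and 0 in maturity. With 0.1 FPKM, 113 genes met the rule, 64 of them 4-fold lower in Ds2, 5 in milky and 5 in maturity. With a booting minimum of 20 FPKM, 48 genes met the rule, 23 of them 4-fold lower in Ds2, 1 in milky and 1 in maturity. With no minimum, 133 genes met the rule, 72 of them 4-fold lower in Ds2. Ds1 within 1.5-fold left 53 genes, and Ds3 at least 8-fold lower left 29. Scaling by the median of ratios gave 92 members and quantile normalization 101. An alternative chosen after seeing the data, the 73 members at the common booting ratio between parts, had 37 that were 4-fold lower in Ds2. The number of members thus rests on the pseudocount and the thresholds. No paired analysis was possible because each group has 1 pooled value, and for the same reason no library could be left out.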
